A study of Mus musculus with 41 samples.

Results

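The transcriptome of the injured mouse kidney was compared between day 7 after ischemia with removal of the other kidney on day 3 (UIRI+Nx d7, 6 libraries) and day 3 after the same ischemia (UIRI d3, 6 libraries). These 12 libraries of the first cohort were chosen by their sample titles, out of 41 libraries in all. The 41 include a library titled UNDETERMINED, which entered no comparison. UIRI stands for unilateral ischemia-reperfusion injury, in which the blood supply of 1 kidney is clamped and then released, and Nx for nephrectomy. UIRI+Nx d7 animals were males of 8 to 10 weeks at the start, whose left kidney was clamped for 21 min with the body held at 34 °C, whose uninjured kidney on the other side was removed on day 3, and who were killed on day 7. UIRI d3 animals were males of the same age with the same left-sided ischemia, killed on day 3 with both kidneys in place and no second operation. The groups therefore differ in the day, in the second operation and in the loss of the other kidney, and these cannot be told apart in this comparison. UIRI d7 animals of the same cohort (6 libraries, same ischemia, sham operation on day 3, killed on day 7 with the other kidney in place) and Control animals (6 libraries, no ischemia) give the context. The age of UIRI d7 and Control animals is given as 8 to 10 weeks as well. A second cohort, labelled WT, holds 4 UIRI+Nx d7 and 6 UIRI d3 libraries. Its labels state no sex, age, ischemia time, body temperature or day of nephrectomy. No transgene is named for any of these groups, and the strain is not given in the sources used here. RNA came from a frozen section of a kidney pole, so that each library samples a piece of the organ.

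After ischemia, surviving cells of the proximal tubule, the segment that reabsorbs most of the filtrate, lose part of their specialised program, enter the cell cycle and replace lost neighbours. Monocytes enter the kidney and turn into macrophages that clear debris, and fibroblasts lay down matrix. When the other kidney is removed, the remaining one takes over the whole excretory work and is known to enlarge and to raise filtration and transport per nephron. The comparison asks what changed in the injured kidney over the days in which it became the only kidney.

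Total counts were 5579718 to 19039076 per UIRI+Nx d7 library and 9271486 to 15611432 per UIRI d3 library. No difference passed for these totals or for the mitochondrial share of the counts (4.62% ± 0.896 at UIRI+Nx d7 and 4.22% ± 0.772 at UIRI d3, SD, n = 6 each) (exact permutation test, two-sided, p = 0.66 and p = 0.4, adjusted p = 0.963 for both of 5 library measures). Kidney markers were present in every library, for example the loop transporter gene Slc12a1 at 694 to 1231 CPM (counts per 1000000 library counts, scaled with TMM factors) in UIRI+Nx d7 and 391 to 1126 CPM in UIRI d3. Summed marker levels of adrenal cortex (4.67 to 8.82 CPM in UIRI+Nx d7, 5.17 to 7.7 CPM in UIRI d3) and skeletal muscle (2.55 to 6.9 CPM in UIRI+Nx d7, 5.27 to 12.1 CPM in UIRI d3) were low. The B cell marker Cd79a was at 0 in all 6 UIRI+Nx d7 libraries and in 5 of the 6 UIRI d3 libraries. The summed B and plasma cell list was not, with 56.2 to 92.7 CPM in UIRI+Nx d7 and 48.7 to 104 CPM in UIRI d3. UIRI d3 replicate 2 stood apart from its group on the second principal component, which carried 17% of the variance, and UIRI d3 replicate 3 held by far the most neutrophil transcripts. For genes named here whose fold moved by more than 1.5 times without 1 of these 2 libraries, the value without it is given as well. Library numbers and sheet numbers in the column names put the libraries into 3 blocks, called 1a, 1b and 2b here, with 3, 1 and 2 UIRI+Nx d7 libraries and 2, 1 and 3 UIRI d3 libraries, and no label says what the blocks are.

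Between UIRI+Nx d7 and UIRI d3, 805 of 15701 genes tested differed, which is 5.13% (edgeR quasi-likelihood test, Benjamini-Hochberg adjusted p below 0.05). Of these, 324 were higher (2.06%) and 481 lower (3.06%) at UIRI+Nx d7, and 524 (3.34%) differed by more than 2-fold as fitted. Counts of list members for this comparison are to be read beside the shares of 2.06% higher and 3.06% lower. In 541 genes (3.45%) the libraries of the 2 groups did not overlap. Genes that fell included many of the cell cycle and some of acute tubular injury, of failed tubule repair and of the male proximal tubule. Some genes of the neutrophil and acute-phase list also fell, but each lost its call when certain single libraries were left out. Genes that rose included some of the distal nephron, of glucose and amino acid metabolism, of glutathione conjugation, of macrophages and of the extracellular matrix. In pieces of whole kidney, fewer cells of a type and less RNA per cell cannot be told apart. The count of called genes was 596 without UIRI d3 replicate 2, 525 without UIRI+Nx d7 replicate 3 and 524 without UIRI+Nx d7 replicate 4. Within block 1a it was 1329 (651 higher, 678 lower) and within block 2b 94 (38 higher, 56 lower), and block 1b holds too few libraries for a test.

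**Figure D1:**
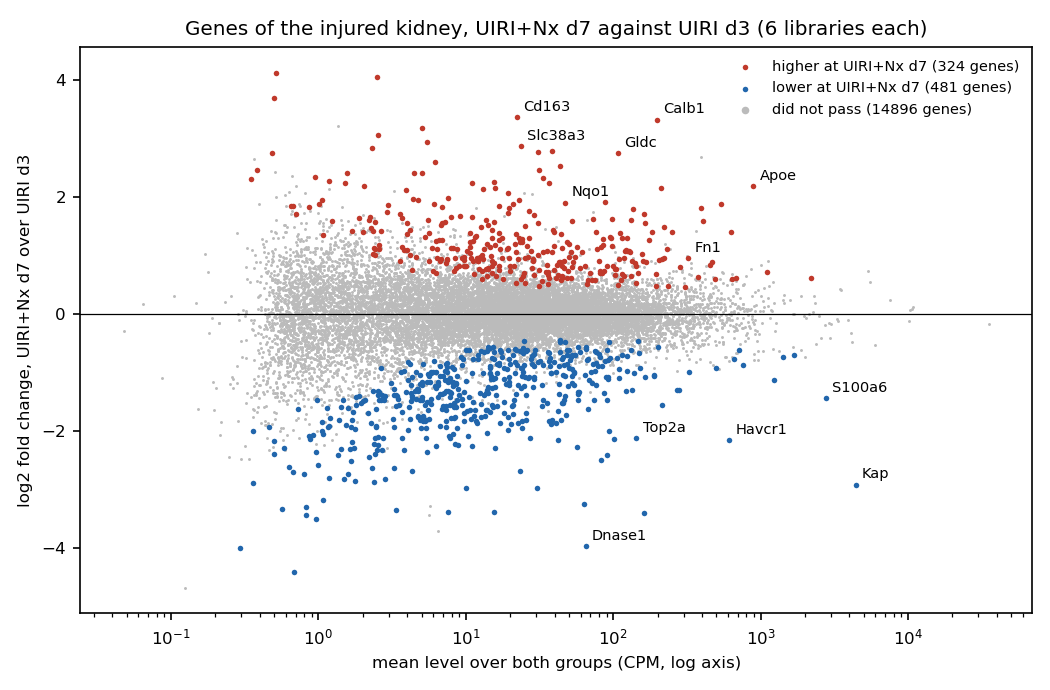
Each point is a gene, with the mean level over both groups in CPM on a log axis and the log2 fold change of UIRI+Nx d7 over UIRI d3 on the vertical axis (6 libraries per group). Red points (324) were higher and blue points (481) lower at UIRI+Nx d7 at an adjusted p below 0.05, and Calb1 and Dnase1 lie at 3.33 and -3.96.

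Genes of the cell cycle fell together. Of 65 genes of G2 and mitosis tested, 49 fell, none rose and 16 did not pass the test, and the list's median log2 fold change was -1.54, against 0.02 over all genes tested. Of 50 genes of DNA replication and S phase, 30 fell, none rose and 20 did not pass, with a median of -1.10. The summed level of the mitotic genes was 637, 890 and 1068 CPM (lowest, median and highest library) at UIRI+Nx d7, against 1989, 2352 and 2653 CPM at UIRI d3. That of the S-phase genes was 655, 785 and 958 CPM at UIRI+Nx d7, against 1454, 1659 and 1857 CPM at UIRI d3. For both sums every UIRI+Nx d7 library lay below every UIRI d3 library, and above the medians of the Control libraries, which were 480 CPM for mitosis and 524 CPM for S phase. Without UIRI d3 replicate 2, 51 mitotic and 26 S-phase genes fell. Within block 1a, 38 mitotic and 20 S-phase genes fell, and within block 2b, 15 and 5. Without UIRI+Nx d7 replicate 3 the S-phase count dropped to 19.

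**Figure D2:**
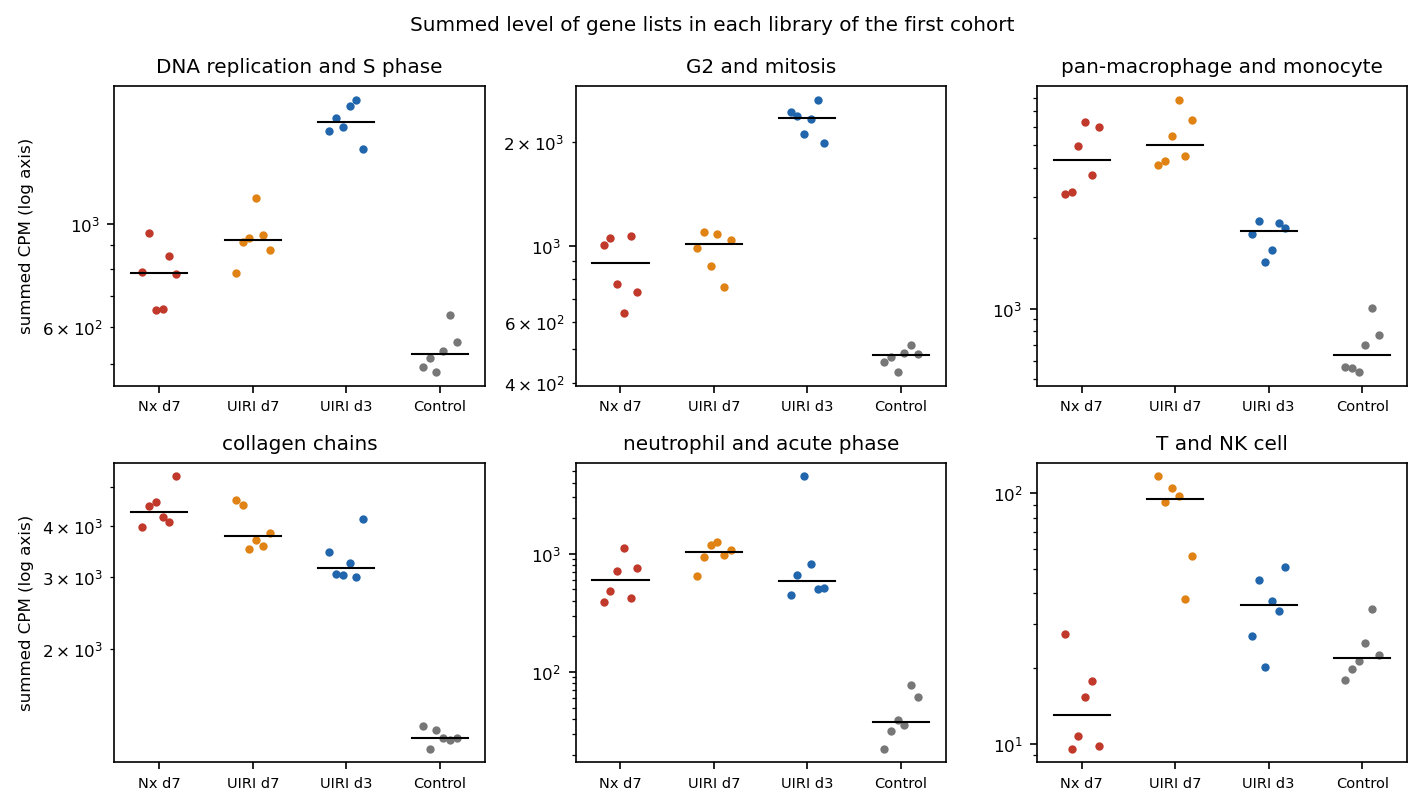
Each point is a library of the first cohort, with the summed CPM of the members of a gene list on a log axis and a line at the median of the group (6 libraries each, UIRI+Nx d7 written as Nx d7). The S-phase and mitotic sums of UIRI+Nx d7 lie below all UIRI d3 libraries and beside those of UIRI d7, while the T and NK cell sum is lower in UIRI+Nx d7 (median 13.1 CPM) than in UIRI d7 (median 95 CPM).

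Mitotic genes are known to carry a short promoter element, the cell cycle genes homology region with the core TTTGAA, through which they are repressed outside the dividing state, and S-phase genes often carry E2F sites such as TTCCCGC. The promoter stretches of 5 members that fell are shown because these letters recur in the list. They are the 120 bases before the start site, from RefSeq on GRCm38.p6, read on the strand of the gene, with TTTGAA or its reverse complement TTCAAA in capitals for the first 3 genes and TTCCCGC or GCGGGAA in capitals for the last 2.
Top2a, chr11:99024190-99024309, minus strand: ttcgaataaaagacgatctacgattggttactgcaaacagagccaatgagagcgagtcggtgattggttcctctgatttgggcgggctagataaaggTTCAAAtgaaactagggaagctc
Cdc20, chr4:118437344-118437463, minus strand: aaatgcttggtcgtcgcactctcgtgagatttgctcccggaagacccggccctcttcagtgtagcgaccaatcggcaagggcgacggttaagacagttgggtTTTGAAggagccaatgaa
Mki67, chr7:135716380-135716499, minus strand: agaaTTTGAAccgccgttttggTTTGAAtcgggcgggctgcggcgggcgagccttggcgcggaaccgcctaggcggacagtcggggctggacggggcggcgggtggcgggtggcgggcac
Rrm1, chr7:102441575-102441694, plus strand: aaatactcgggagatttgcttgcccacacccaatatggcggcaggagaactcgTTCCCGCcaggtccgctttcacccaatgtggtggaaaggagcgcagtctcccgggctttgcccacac
Uhrf1, chr17:56303217-56303336, plus strand: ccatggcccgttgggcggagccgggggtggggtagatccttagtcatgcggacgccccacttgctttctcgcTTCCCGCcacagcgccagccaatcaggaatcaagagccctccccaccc
In Top2a the match begins 23 bases and in Cdc20 18 bases before the start site. TTTGAA was searched on both strands in the 300 bases from 250 before to 50 after the start site. It was found in 34 of 44 promoters of the mitotic genes that fell (77.3%, 42 of 49 genes matched) and in 6 of 13 promoters of the other mitotic genes tested, against 17.9% of all 32851 promoters. TTCCCGC, searched in the same way, was found in 14 of 32 promoters of the S-phase genes that fell (43.8%, 27 of 30 genes matched) and in 4 of 16 promoters of the other S-phase genes, against 4.6% of all promoters. Of the 5 genes shown, Uhrf1 lost its call in 6 of 12 cases when single libraries were left out (log2 fold change -1.38, adjusted p = 0.0345 with all). A match to one motif is never a match to the other. A match describes the letters and not a bound site.

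Top2a encodes the topoisomerase that untangles chromosomes before they separate (chr11:98992943-99024189, GRCm38, minus strand). It had 31.1, 53.2 and 74.4 CPM at UIRI+Nx d7 (lowest, median and highest library), against 150, 228 and 313 CPM at UIRI d3. All 6 UIRI+Nx d7 libraries lay below all 6 UIRI d3 libraries, with a log2 fold change of -2.12 (SE 0.24, adjusted p = 8.48e-06). Cdc20, the activator of the complex that starts anaphase, had 7.32, 9.18 and 14.9 CPM at UIRI+Nx d7, against 28.9, 35.4 and 42.8 CPM at UIRI d3, a log2 fold change of -1.85 (SE 0.25, adjusted p = 4.36e-05). Pclaf, a partner of the replication clamp, had 15.3, 30.4 and 42.8 CPM at UIRI+Nx d7, against 111, 155 and 210 CPM at UIRI d3. Its log2 fold change was -2.41 (SE 0.28, adjusted p = 9.05e-06), and again the groups were apart. Mcm3, a subunit of the helicase that opens DNA for replication, had 16, 24.4 and 30.6 CPM at UIRI+Nx d7, against 51.3, 74 and 77 CPM at UIRI d3 (log2 fold change -1.51, SE 0.18, adjusted p = 9.05e-06). Foxm1, the transcription factor that drives mitotic genes, had 8.17, 11.5 and 13.4 CPM at UIRI+Nx d7, against 23.2, 30.4 and 38.7 CPM at UIRI d3, with no overlap (-1.47, SE 0.19, adjusted p = 2.69e-05).

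The other cell-cycle members named by the selection rule moved the same way. Log2 fold changes were -2.96 for Aunip, which binds the mitotic kinase Aurora A, -2.62 for the spindle protein gene Dlgap5, -2.35 for Rmi2, a subunit of a complex that resolves DNA crossovers, and -1.83 for the proliferation marker Mki67. They were -1.85 for Cdca8, a subunit of the chromosomal passenger complex, -1.70 for the spindle assembly factor Tpx2 and -1.66 for thymidine kinase Tk1. For the replication genes Mcm5 and Mcm10 they were -1.56 and -1.63. Adjusted p lay between 1.04e-05 (Cdca8) and 0.00335 (Rmi2) in these genes. Mcm10 had 1.7, 3.59 and 5.2 CPM at UIRI+Nx d7 and 7.08, 11.4 and 13.6 CPM at UIRI d3. Control libraries held 4.07 to 8.77 CPM, and UIRI+Nx d7 was lower than Control (log2 fold change -0.92, adjusted p = 0.00347). The cell-cycle inhibitor gene Cdkn1a did not pass, with 48.8, 94 and 116 CPM at UIRI+Nx d7 and 66.1, 69.1 and 77.5 CPM at UIRI d3 (log2 fold change 0.31, SE 0.23, adjusted p = 0.52).

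Markers of acute tubular injury fell in part. Of 30 such genes, 6 fell, none rose and 24 did not pass, with a median log2 fold change of -0.18. Havcr1 (chr11:46735080-46779578, GRCm38), which encodes kidney injury molecule-1 of the damaged proximal tubule, had 76.8, 238 and 343 CPM at UIRI+Nx d7, against 564, 944 and 1610 CPM at UIRI d3. No library of the 2 groups overlapped, and the log2 fold change was -2.15 (SE 0.36, adjusted p = 0.000431). Control libraries had at most 5.35 CPM, so the injury marker stayed far above the uninjured level on day 7 (log2 fold change of UIRI+Nx d7 over Control 5.71, SE 0.43, adjusted p = 1.62e-10). Sprr1a, a cornified envelope gene that epithelia switch on under stress, had 12.1, 25.6 and 36.8 CPM at UIRI+Nx d7, against 106, 143 and 171 CPM at UIRI d3 (-2.48, SE 0.39, adjusted p = 0.000207), and Control libraries held 5.86 to 49.4 CPM. S100a6, a calcium-binding protein gene of stressed tubules, had 788, 1430 and 2581 CPM at UIRI+Nx d7, against 2867, 4395 and 4687 CPM at UIRI d3 (-1.43, SE 0.29, adjusted p = 0.00311). Cd44, the hyaluronan receptor, had 39.3, 48.8 and 50.9 CPM at UIRI+Nx d7 and 55.7, 93.7 and 125 CPM at UIRI d3 (-0.98, SE 0.22, adjusted p = 0.0082). The intermediate filament gene Krt20 fell by 1.32 on the log2 scale (adjusted p = 0.0212), a call lost when UIRI+Nx d7 replicate 2, UIRI d3 replicate 2 or UIRI d3 replicate 5 was left out.

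Other injury genes did not pass. Lcn2, an iron-carrier scavenger gene and urinary injury marker, had 68.9, 210 and 445 CPM at UIRI+Nx d7 and 47.4, 101 and 534 CPM at UIRI d3 (log2 fold change 0.43, SE 0.48, adjusted p = 0.706). The 534 CPM came from UIRI d3 replicate 3, without which the log2 fold change of Lcn2 was 1.20 and did not pass (adjusted p = 0.108). Sox9, the transcription factor of regenerating tubule cells, had 107, 156 and 214 CPM at UIRI+Nx d7 and 82.8, 168 and 307 CPM at UIRI d3 (-0.15, SE 0.24, adjusted p = 0.809). In both genes the groups overlapped throughout, and Control levels were at most 4.2 CPM for Lcn2 and 7.02 CPM for Sox9.

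Genes of a proximal tubule state that persists after failed repair fell in part. Those that fell are targets or members of the NF-kappaB pathway, but the list was written with many such genes. Others of them, such as Nfkb1 and Nfkbia, were not among those that fell. Of 19 genes of the list tested, 5 fell, none rose and 14 did not pass, with a median log2 fold change of -0.21. The summed level of the list overlapped, with 1256, 1636 and 1903 CPM at UIRI+Nx d7 and 1533, 2090 and 2188 CPM at UIRI d3. Vcam1, an adhesion molecule gene of this state, had 122, 159 and 206 CPM at UIRI+Nx d7, against 246, 391 and 521 CPM at UIRI d3. The groups did not overlap, and the log2 fold change was -1.29 (SE 0.22, adjusted p = 0.000511). Bcl3, which encodes a nuclear cofactor of NF-kappaB, had 24.2, 56.6 and 64 CPM at UIRI+Nx d7, against 73, 130 and 147 CPM at UIRI d3 (-1.34, SE 0.23, adjusted p = 0.000555). The NF-kappaB subunit genes Relb and Nfkb2 fell by 1.07 and 1.0 on the log2 scale (adjusted p = 0.00337 and 0.00663), and Traf1, a signalling adaptor gene, fell by 1.27 (adjusted p = 0.0103). Vcam1 is also made by activated endothelium, and the part of other cell types in these values was not tested.

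In the distal nephron several transport genes rose. Of 20 genes of the distal convoluted and connecting tubule, 6 rose, none fell and 14 did not pass, and the median log2 fold change was 0.28. Of 18 genes of the thick ascending limb 4 rose and none fell, of 18 principal cell genes 4 rose and 1 fell, and of 19 intercalated cell genes 1 rose. Without UIRI+Nx d7 replicate 2 only 2 principal cell genes rose, and 3 intercalated cell genes rose without UIRI+Nx d7 replicate 6 and 2 without UIRI d3 replicate 4. Calb1, which encodes calbindin-D28k, the calcium carrier of the distal tubule (chr4:15881264-15908064, GRCm38), had 243, 351 and 538 CPM at UIRI+Nx d7, against 17.5, 34.1 and 65.5 CPM at UIRI d3. Every UIRI+Nx d7 library lay far above every UIRI d3 library, and the rise was 10.1-fold (log2 fold change 3.33, SE 0.29, adjusted p = 1.26e-07). S100g, the smaller calbindin of the same segment, had 520, 588 and 703 CPM at UIRI+Nx d7, against 277, 317 and 409 CPM at UIRI d3 (0.89, SE 0.18, adjusted p = 0.00327). Control libraries were above UIRI+Nx d7 for both, with medians of 628 CPM for Calb1 and 1899 CPM for S100g.

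Kcnj10, the basolateral potassium channel of the distal convoluted tubule, had 25.9, 30.8 and 44 CPM at UIRI+Nx d7, against 11.6, 12.9 and 15.8 CPM at UIRI d3, without overlap (log2 fold change 1.31, SE 0.15, adjusted p = 7.11e-06). Its UIRI+Nx d7 level did not differ from Control beyond the spread (-0.26, SE 0.14, adjusted p = 0.191). Wnk4, a kinase gene that controls sodium chloride transport, rose by 0.90 on the log2 scale (adjusted p = 0.000294), and Sgk1, an aldosterone-induced kinase gene, by 1.10 (adjusted p = 0.0256). Among principal cell genes, the sodium channel subunits Scnn1a and Scnn1g rose by 1.38 and 1.5 and the water channel Aqp3 by 1.53, with adjusted p of 0.00627, 0.0169 and 0.0268. Leaving out single libraries ended the calls of Sgk1 and Aqp3 in 5 of 12 cases each, and that of Scnn1g without UIRI+Nx d7 replicate 2. Scnn1a had 31, 53.8 and 134 CPM at UIRI+Nx d7, against 19.9, 24.6 and 30.9 CPM at UIRI d3, and the groups only just did not overlap. In the thick ascending limb Bsnd, which encodes barttin, rose by 0.92 and Sostdc1, a secreted antagonist of BMP signals, by 1.31. Atp6v0d2, a proton pump subunit of intercalated cells, rose by 1.30 (adjusted p = 0.000392).

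The most abundant loop marker did not share in this. Umod, the uromodulin gene, had 647, 815 and 1464 CPM at UIRI+Nx d7 and 1142, 1266 and 2471 CPM at UIRI d3, with overlapping libraries (log2 fold change -0.59, SE 0.23, adjusted p = 0.144). Egf, the growth factor gene of the distal tubule, had 5.99, 15.5 and 42 CPM at UIRI+Nx d7 and 18, 24.2 and 26.9 CPM at UIRI d3 (-0.31, SE 0.29, adjusted p = 0.64), against 362 to 836 CPM in Control libraries. Both genes were below Control at UIRI+Nx d7.

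Several proximal tubule genes of glucose and ammonia metabolism rose. Of 18 genes of this list 5 rose, none fell and 13 did not pass, with a median log2 fold change of 0.43. Slc38a3, the glutamine transporter that feeds ammonia production, had 23.9, 32.6 and 72.5 CPM at UIRI+Nx d7, against 1.49, 3.56 and 17.9 CPM at UIRI d3. The groups did not overlap, the highest UIRI d3 value came from replicate 3, and the rise was 7.35-fold (log2 fold change 2.88, SE 0.43, adjusted p = 0.000139). Without that library the log2 fold change was 3.63. Control libraries had 29.5 to 34.2 CPM, and UIRI+Nx d7 did not differ from them beyond the spread (0.38, adjusted p = 0.517). Gldc, the glycine cleavage enzyme, had 49.6, 142 and 507 CPM at UIRI+Nx d7 and 9.87, 21.2 and 72.7 CPM at UIRI d3, with overlap through UIRI d3 replicate 3 (2.75, SE 0.57, adjusted p = 0.00367). The 507 CPM came from UIRI+Nx d7 replicate 4, without which the log2 fold change was 2.15 (adjusted p = 0.0184). Gldc lay above Control at UIRI+Nx d7 (log2 fold change 2.09, adjusted p = 0.00421). The glucose-6-phosphatase gene G6pc rose by 1.92 (adjusted p = 0.000207), its partner transporter Slc37a4 by 0.66 (adjusted p = 0.00601) and Pck1, which encodes a rate-setting enzyme of gluconeogenesis, by 1.82 (adjusted p = 0.0146).

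In other proximal tubule programs few genes passed. Over all genes tested, 2.06% rose and 3.06% fell. Of 45 transporter genes 2 rose and 2 fell, and of 75 genes of oxidative phosphorylation 2 rose and none fell, with medians of 0.02 and 0.25. These counts are unstable. Without single libraries 1 to 2 transporter genes rose and 0 to 5 fell, and their total moved by more than 1.5 times without UIRI+Nx d7 replicate 1, 3, 4 or 6 or without UIRI d3 replicate 4 or 6. The oxidative phosphorylation count lay between 0 and 2 and was 2 only without UIRI+Nx d7 replicate 5 or UIRI d3 replicate 6. Abcc2, the apical pump for conjugated compounds, had 195, 274 and 364 CPM at UIRI+Nx d7, against 80.9, 94.1 and 137 CPM at UIRI d3 (log2 fold change 1.40, SE 0.21, adjusted p = 0.000109), without overlap. Slc34a1, the main phosphate transporter gene, had 839, 1260 and 2420 CPM at UIRI+Nx d7 and 2014, 2578 and 2665 CPM at UIRI d3, and just missed the threshold (-0.73, SE 0.22, adjusted p = 0.0512). It passed with DESeq2 (-0.74, adjusted p = 0.0128), but not in edgeR fits within block 1a or 2b (-0.91 and -0.47, adjusted p = 0.129 and 0.696). Cyp27b1, the enzyme that activates vitamin D, had 1.25, 6.04 and 19.6 CPM at UIRI+Nx d7 and 0.601, 0.838 and 1.8 CPM at UIRI d3, with overlapping libraries (3.18, SE 0.73, adjusted p = 0.00878). The amino acid transporter Slc6a19 (1.12, adjusted p = 0.0291) and the respiratory chain subunit Ndufa10 (0.49, adjusted p = 0.0385) also passed. Leaving out single libraries ended these calls in 6 and 8 of 12 cases.

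Some genes of glutathione conjugation and quinone reduction, known targets of the stress factor NRF2, rose. Of 26 NRF2 targets 5 rose, 1 fell and 20 did not pass, with a median log2 fold change of 0.28. Gsta4, a glutathione transferase for lipid peroxidation products, had 48.2, 65.2 and 95.6 CPM at UIRI+Nx d7, against 5.17, 9.54 and 13.4 CPM at UIRI d3. The groups were widely apart (2.79, SE 0.26, adjusted p = 2.85e-07), and UIRI+Nx d7 was above Control as well (1.54, adjusted p = 2.45e-05). Nqo1, the quinone reductase, had 62.8, 70.3 and 88.8 CPM at UIRI+Nx d7, against 12.3, 18.6 and 35.5 CPM at UIRI d3, without overlap (1.91, SE 0.25, adjusted p = 3.95e-05). The carbonyl reductase Cbr3 rose by 2.27 (adjusted p = 3.91e-05) and the transferase Gstm1 by 1.41 (adjusted p = 0.000294). Gsta2 rose by 2.16 (adjusted p = 0.000681), with the caution that close copies in its family could share reads. The member that fell was Hmox1, the heme-degrading enzyme, with 45, 86.3 and 113 CPM at UIRI+Nx d7, against 114, 145 and 279 CPM at UIRI d3 (-0.96, SE 0.22, adjusted p = 0.0103).

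Some genes typical of the male proximal tubule fell further below the uninjured level. Of 14 androgen-responsive genes 4 fell, none rose and 10 did not pass, with a median log2 fold change of -1.16. Their summed level was 962, 1716 and 2916 CPM at UIRI+Nx d7, against 5428, 8894 and 12223 CPM at UIRI d3, and 35299 to 63444 CPM in Control libraries. Kap, the androgen-regulated kidney protein that dominates this sum, had 610, 1098 and 1394 CPM at UIRI+Nx d7, against 4549, 8022 and 10789 CPM at UIRI d3, without overlap (-2.91, SE 0.41, adjusted p = 7.14e-05). The count of this list lay between 2 and 6 when single libraries were left out. It moved by more than 1.5 times without UIRI+Nx d7 replicate 3, 4, 5 or 6 or without UIRI d3 replicate 6.

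Dnase1, the secreted nuclease of the tubule (chr16:4036942-4040024, GRCm38), fell 15.6-fold. It had 4.1, 5.72 and 19 CPM at UIRI+Nx d7, against 86.1, 124 and 157 CPM at UIRI d3 and 424, 680 and 1082 CPM in Control (-3.96, SE 0.35, adjusted p = 1.26e-07 against UIRI d3). No library of UIRI+Nx d7 came near the UIRI d3 libraries, and replicate 1 was the highest. Inmt, a methyltransferase gene, had 3.91, 6.08 and 12.4 CPM at UIRI+Nx d7, against 14, 54.4 and 87.7 CPM at UIRI d3 (-2.97, SE 0.52, adjusted p = 0.000685). Cyp2d12 fell by 3.37 (adjusted p = 0.000392), with possible sharing of reads with close family members. Timd2, a ferritin receptor gene, fell by 1.46 (adjusted p = 5.01e-05). The organic anion carriers Slco1a1 and Slc22a30 passed with -2.11 and -1.85 (adjusted p = 0.0262 and 0.0327), calls that were lost in 5 and 7 of 12 cases when single libraries were left out, and Slc22a30 has near copies. Without UIRI+Nx d7 replicate 1 the value of Slc22a30 was -2.46.

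Some macrophage genes rose. Of 35 general macrophage and monocyte genes 8 rose, 2 fell and 25 did not pass, with a median log2 fold change of 0.51, and their summed level was 3109, 4348 and 6305 CPM at UIRI+Nx d7, against 1592, 2145 and 2382 CPM at UIRI d3. The sums did not overlap. Cd163, the scavenger receptor for hemoglobin complexes (chr6:124304656-124330527, GRCm38), had 5.72, 33.4 and 81.4 CPM at UIRI+Nx d7, against 2.97, 3.49 and 5.45 CPM at UIRI d3. It rose 10.3-fold (3.37, SE 0.50, adjusted p = 0.000128), although the lowest UIRI+Nx d7 library lay just above the highest UIRI d3 library. Apoe, the lipid carrier of debris-clearing macrophages, had 832, 1202 and 2750 CPM at UIRI+Nx d7, against 199, 324 and 416 CPM at UIRI d3, without overlap (2.19, SE 0.31, adjusted p = 7.14e-05). Lysozyme (Lyz2), the Fc receptor Fcgr3 and the lysosomal protease Ctss rose by 1.6, 1.56 and 1.5 (adjusted p = 0.000115, 0.000146 and 0.000207). The members that fell were the inflammatory monocyte marker Ly6c2 (-2.82, adjusted p = 0.000231) and Lst1 (-1.32, adjusted p = 0.00854). Ly6c2 was low already at UIRI d3, with 5.95 CPM in replicate 3 and 1.38 to 2.74 CPM in the others. Neither gene passed within block 1a (adjusted p = 0.0616 and 0.11) or block 2b (adjusted p = 0.101 and 0.262).

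Of 25 genes of alternatively activated and scavenging macrophages, 5 rose and 1, Hmox1, fell. The summed level of the list overlapped between the groups, with 3044, 3530 and 4848 CPM at UIRI+Nx d7 and 2375, 3339 and 5444 CPM at UIRI d3. Arg1, the arginase of this state, had 17.2, 50 and 108 CPM at UIRI+Nx d7 and 3.06, 8.7 and 22.7 CPM at UIRI d3, with overlapping libraries (2.33, SE 0.51, adjusted p = 0.00676). Lyve1, which encodes a receptor for hyaluronan in lymphatics and resident macrophages, rose by 2.42 (adjusted p = 0.00259), and the chemokine Ccl8 by 2.25 (adjusted p = 0.0163). The macrophage marker Adgre1 had 7.49, 11.7 and 16 CPM at UIRI+Nx d7 and 8.09, 10.8 and 16.8 CPM at UIRI d3 and did not pass (0.05, SE 0.27, adjusted p = 0.946). Mmp12, the macrophage elastase, rose by 2.15 (adjusted p = 0.000147). Within block 1a 4 and within block 2b 3 of the general macrophage genes rose.

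Neutrophil, interferon and lymphocyte genes were lower where they passed with all libraries in. Of 19 neutrophil and acute-phase genes 4 fell, of 37 interferon-response genes 5 fell, and of 16 T and NK cell genes 2 fell, and none rose in any of the 3 lists. The calprotectin subunit S100a9 had 9.08, 11.9 and 15.8 CPM at UIRI+Nx d7, against 17.4, 34 and 523 CPM at UIRI d3 (-3.24, SE 0.71, adjusted p = 0.00679). The value of 523 CPM came from UIRI d3 replicate 3, without which the log2 fold change was -1.40 and did not pass (adjusted p = 0.0676), and S100a8 likewise went to -1.42. The other members that fell were the neutrophil receptor gene Cxcr2 (-2.30, adjusted p = 0.0192) and the chemokine Cxcl2 (-1.49, adjusted p = 0.0191). Cxcr2 went to -1.56 without UIRI d3 replicate 3 and did not pass, and Cxcl2 lost its call without UIRI+Nx d7 replicate 3 or 4. Without UIRI d3 replicate 3 the neutrophil and acute-phase list gave 1 gene that fell and 2 that rose. Slpi, a protease inhibitor gene outside these lists, had 1.63, 1.89 and 5.35 CPM at UIRI+Nx d7, against 6.41, 12.4 and 112 CPM at UIRI d3. Its log2 fold change was -3.38 (adjusted p = 0.00132), or -2.11 without that library (adjusted p = 0.005). Il1rn, the interleukin-1 receptor antagonist, had 13.4, 21.6 and 23.5 CPM at UIRI+Nx d7, against 49.5, 59.6 and 96.1 CPM at UIRI d3, without overlap (-1.65, SE 0.24, adjusted p = 0.0001). Ccl5, a chemokine of T and NK cells, had 2, 3.48 and 6.8 CPM at UIRI+Nx d7, against 8.42, 13.6 and 17.5 CPM at UIRI d3 (-1.77, SE 0.33, adjusted p = 0.00167). The interferon-induced genes Ifi27l2a and Oasl1 fell by 1.95 and 1.83 (adjusted p = 0.000681 and 0.000379). When single libraries were left out, 1 to 5 neutrophil and acute-phase genes fell and 0 to 2 rose, 3 to 8 interferon genes fell and 1 to 6 T and NK cell genes fell. The interferon count moved by more than 1.5 times without UIRI+Nx d7 replicate 1, 4, 5 or 6 or without UIRI d3 replicate 4, and the T and NK cell count without UIRI+Nx d7 replicate 1, 2, 4 or 6 or without UIRI d3 replicate 4 or 6.

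Some matrix genes rose, while genes of fibroblasts and myofibroblasts went both ways. Of 24 collagen genes 5 rose and none fell, and of 46 genes of matrix glycoproteins and remodelling 9 rose and 2 fell, with medians of 0.39 and 0.31. Col12a1, a collagen that sits on fibril surfaces, had 42, 80.3 and 90.5 CPM at UIRI+Nx d7, against 8.15, 11.2 and 22.4 CPM at UIRI d3. The groups did not overlap (2.53, SE 0.28, adjusted p = 4.99e-06). Fibronectin (Fn1) had 330, 401 and 576 CPM at UIRI+Nx d7, against 142, 231 and 250 CPM at UIRI d3 (0.96, SE 0.17, adjusted p = 0.000892), and the microfibril gene Mfap5 rose by 2.08 (adjusted p = 0.000139). Col5a2 and the procollagen protease Adamts2 rose by 1.21 and 1.16 (adjusted p = 0.00701 and 0.000625). Col1a1, the main fibrillar collagen, passed narrowly with 661, 782 and 1182 CPM at UIRI+Nx d7, against 411, 541 and 654 CPM at UIRI d3 (0.63, SE 0.19, adjusted p = 0.0482), and lost the call in 10 of 12 cases when single libraries were left out. Acta2, the smooth muscle actin of myofibroblasts, had 141, 216 and 376 CPM at UIRI+Nx d7 and 224, 314 and 326 CPM at UIRI d3 (-0.34, SE 0.28, adjusted p = 0.582). Of 22 fibroblast and myofibroblast genes, which include Acta2, 2 rose, 2 fell and 18 did not pass, with a median of 0.20. Those that rose were Fap, a surface protease gene of activated fibroblasts (1.88, adjusted p = 0.0145), and Ltbp2, a gene of a microfibril protein (1.20, adjusted p = 0.0218). Those that fell were S100a4, which macrophages express too (-2.13, adjusted p = 5.22e-05), and Cd34, which marks endothelium as well (-0.85, adjusted p = 0.0355). Leaving out single libraries ended the calls of Ltbp2 and Cd34 in 2 and 6 of 12 cases. Without UIRI d3 replicate 2, the count of remodelling genes that rose was 6.

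**Figure D3:**
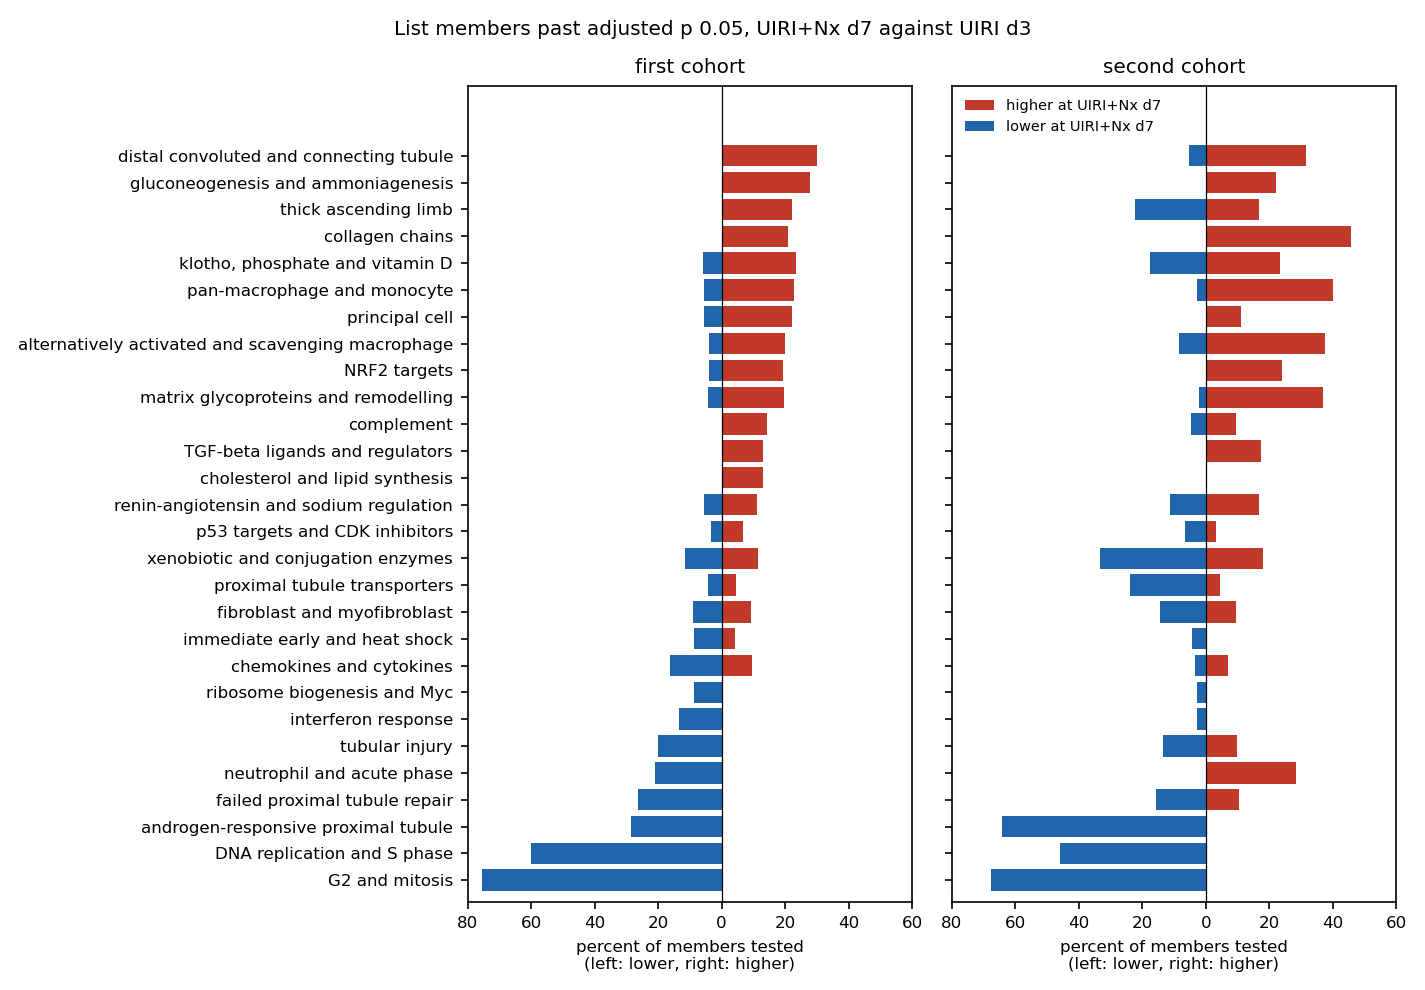
Bars give the percent of the tested members of each gene list that passed an adjusted p of 0.05, to the right where higher (red) and to the left where lower (blue) at UIRI+Nx d7 than at UIRI d3, for the first (left panel) and second cohort (right panel). The mitotic and S-phase lists reach farthest to the left in the first cohort (49 of 65 and 30 of 50 members), and the distal convoluted and connecting tubule list farthest to the right (6 of 20).

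The same contrast in the second cohort uses other libraries. There 935 of 15543 genes passed (6.02%), 462 higher (2.97%) and 473 lower (3.04%). Of 15263 genes tested in both cohorts, 799 passed in the first and 925 in the second, and 323 passed in both, all in the same direction (143 higher, 180 lower). These are 40.4% of the first cohort's calls and 34.9% of the second's. Of the 799 genes, 758 (94.9%) had the same sign in the second cohort, against 60.7% of all genes. The median absolute log2 fold change of the 799 genes was 1.21 in the first cohort. In the second cohort their median was 0.672, counted as negative where the sign was opposite. The 925 genes called in the second cohort had a median absolute value of 0.974 there. Counted in the same way, their median in the first cohort was 0.665. Each value was thus smaller in the cohort that did not choose the genes. A test of the difference between the cohorts called 0 of 16606 genes with edgeR, 3 with DESeq2, and 1115 (6.71%) at an unadjusted p below 0.05. The cohorts were aligned to different genome builds, GRCm38 and GRCm39.

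**Figure D4:**
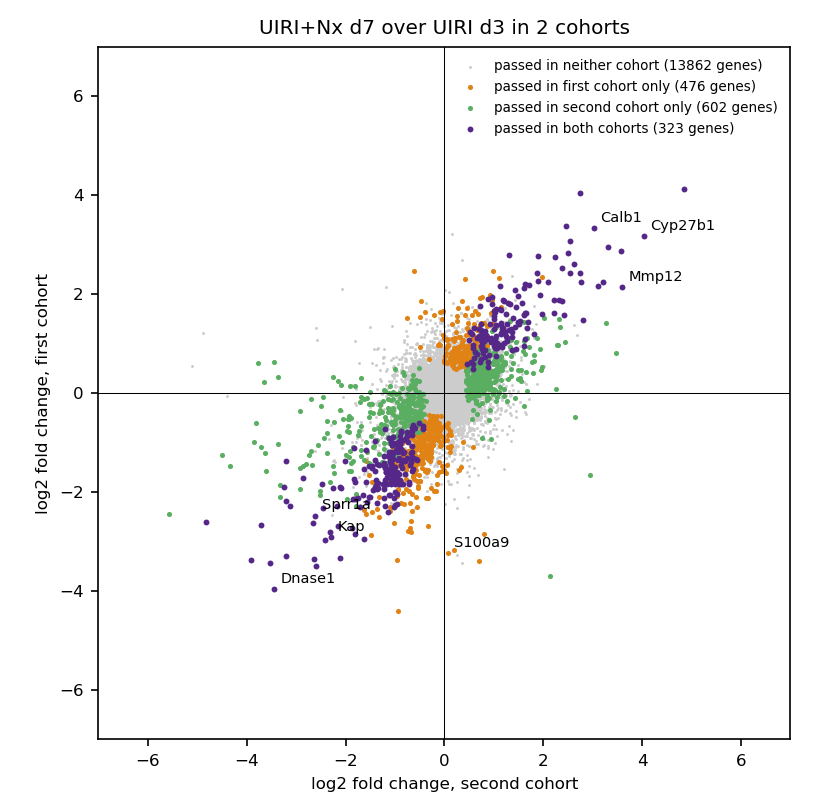
Each point is a gene tested in both cohorts, with the log2 fold change of UIRI+Nx d7 over UIRI d3 in the second cohort on the horizontal axis and in the first cohort on the vertical axis, coloured by the cohort in which it passed the test. The 323 genes that passed in both lie in the upper right and lower left parts of the plot, with Calb1 at 3.03 and 3.33 and Dnase1 at -3.44 and -3.96.

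Calb1 had 291, 168, 196 and 98.8 CPM in the 4 UIRI+Nx d7 libraries of the second cohort, against 17.7, 23.2 and 28 CPM (lowest, median and highest) at UIRI d3. Slc38a3 had 75.2, 110, 35.2 and 79.2 CPM at UIRI+Nx d7, against 4.38, 5.92 and 10.1 CPM at UIRI d3. Both genes were separated there as in the first cohort, with log2 fold changes of 3.03 and 3.57 (adjusted p = 8.91e-07 and 4.75e-07). The naming rules took genes called in both cohorts, so the separation of these genes is no independent check of the first cohort. Havcr1 had 328, 64.9, 244 and 156 CPM at UIRI+Nx d7, against 420, 781 and 892 CPM at UIRI d3 (-1.85, adjusted p = 0.00217). In the second cohort 44 of 65 mitotic, 23 of 50 S-phase and 9 of 14 androgen-responsive genes fell, and 11 of 24 collagen genes rose. Of 21 neutrophil and acute-phase genes 6 were higher and none lower there, and S100a9 did not pass (0.07, adjusted p = 0.927). Vcam1 and Relb did not pass there (-0.28 and -0.09, adjusted p = 0.602 and 0.823), nor did G6pc (0.72, adjusted p = 0.146). Sox9 rose there by 0.86 (adjusted p = 0.0113) and Lcn2 by 0.97 (adjusted p = 0.00902). The difference between cohorts passed for none of these genes.

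Because the day and the nephrectomy change together, UIRI+Nx d7 was also set against UIRI d7. This test called 1040 of 15701 genes (6.62%), 497 higher (3.17%) and 543 lower (3.46%) at UIRI+Nx d7, or 586 when fitted on those 2 groups alone. It shares the UIRI+Nx d7 libraries with the comparison above, and UIRI d7 against UIRI d3, with 409 genes called (2.6%, 1.24% higher and 1.36% lower), shares the UIRI d3 libraries, so the values are given side by side. Cell-cycle genes mostly did not pass in this test. None of the 50 S-phase genes and 1 of the 65 mitotic genes passed between UIRI+Nx d7 and UIRI d7, while 18 and 45 were lower at UIRI d7 than at UIRI d3. The mitotic gene sum was 637, 890 and 1068 CPM at UIRI+Nx d7 and 759, 1011 and 1095 CPM at UIRI d7. Top2a was lower with nephrectomy (-0.80, adjusted p = 0.0392). The collagen genes gave 0 calls in either direction between UIRI+Nx d7 and UIRI d7, with a median of 0.11.

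Some distal, metabolic and conjugation genes were higher at UIRI+Nx d7 than at UIRI d7. Of 20 genes of the distal convoluted and connecting tubule 6 were higher and none lower, of 26 NRF2 targets 7 were higher and none lower, and of 18 genes of glucose and ammonia metabolism 9 were higher and none lower. Of 35 xenobiotic and conjugation enzymes 9 were higher and 3 lower. Calb1 had 31, 47.8 and 59.7 CPM at UIRI d7, and UIRI+Nx d7 was higher by 2.94 on the log2 scale (adjusted p = 6.37e-07). The UIRI d7 libraries lay within the UIRI d3 range (0.39, adjusted p = 0.583). UIRI+Nx d7 was also above UIRI d7 for Slc38a3 (2.41, adjusted p = 0.000811), Gsta4 (2.80, adjusted p = 6.37e-07), Nqo1 (2.48, adjusted p = 1.57e-06) and Kcnj10 (1.43, adjusted p = 1.57e-06). Between UIRI d7 and UIRI d3 none of these 4 passed (0.47 for Slc38a3, -0.01 for Gsta4, -0.57 for Nqo1 and -0.12 for Kcnj10, adjusted p = 0.716, 0.996, 0.293 and 0.805). Dnase1 and Kap were lower by 3.32 and 2.43 (adjusted p = 1.57e-06 and 0.00048). Havcr1, with 190, 745 and 894 CPM at UIRI d7, was lower by 1.59 with nephrectomy (adjusted p = 0.00668).

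**Figure D5:**
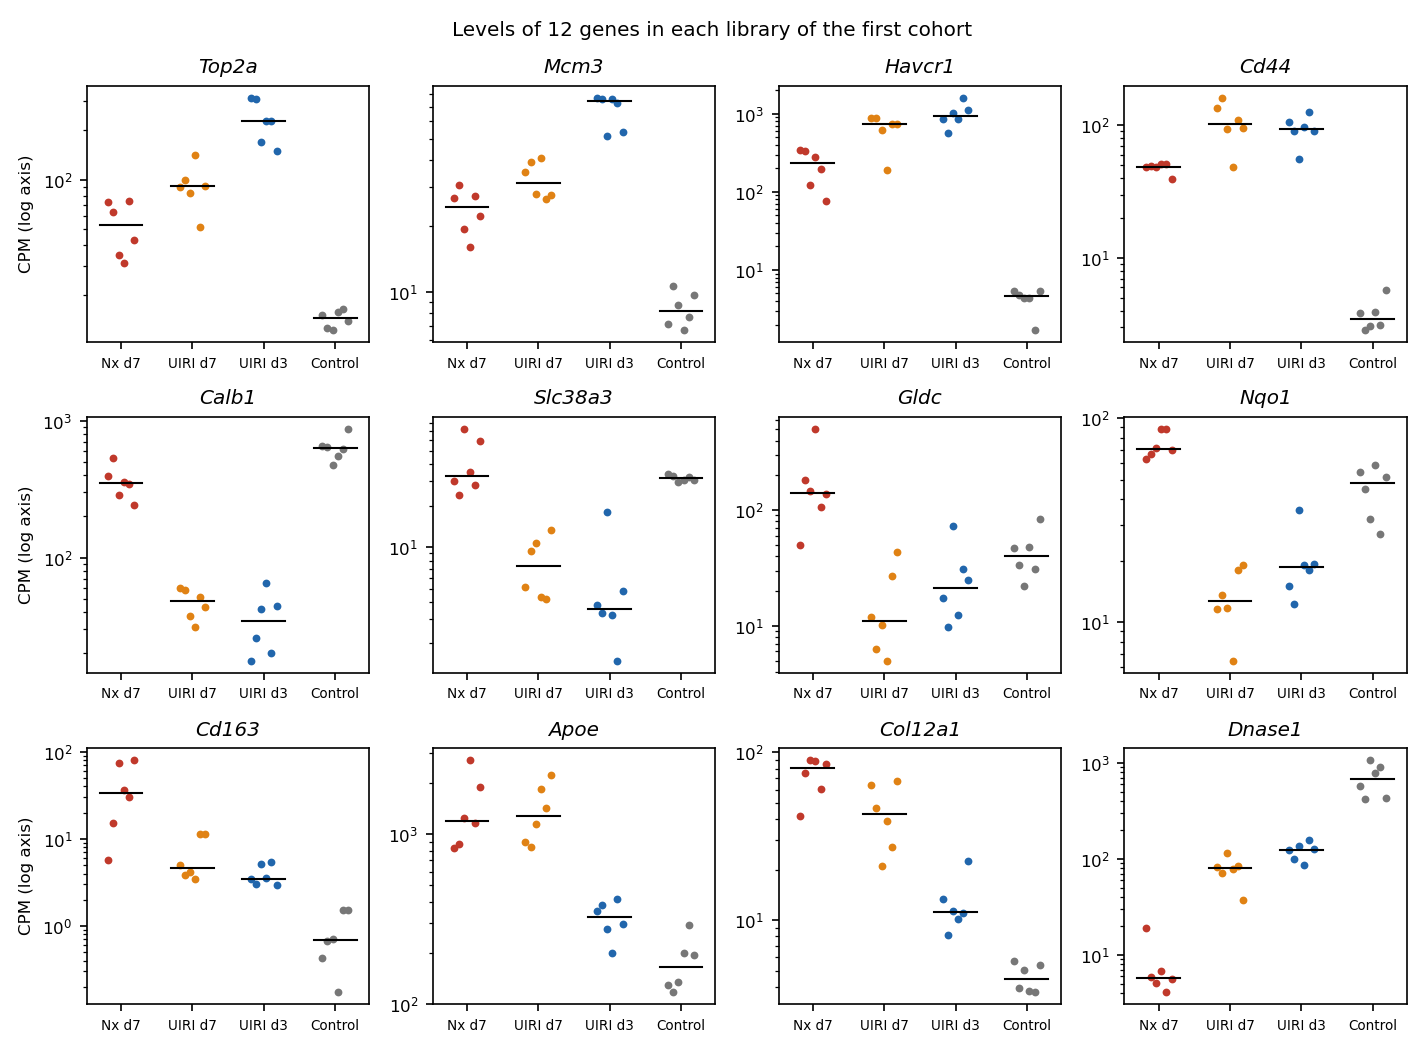
Each point is a library of the first cohort, with CPM on a log axis for 12 genes and a line at the median of each group (6 libraries each, UIRI+Nx d7 written as Nx d7). Calb1, Slc38a3, Gldc and Nqo1 are high in UIRI+Nx d7 and low in both UIRI d7 and UIRI d3, whereas Top2a, Apoe and Col12a1 in UIRI+Nx d7 lie nearer to UIRI d7 than to UIRI d3.

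Immune genes behaved in several ways. Apoe and Lyz2 did not pass between UIRI+Nx d7 and UIRI d7 (0.06 and 0.03, adjusted p = 0.941 and 0.968), with 844, 1287 and 2231 CPM of Apoe at UIRI d7. Cd163 was higher with nephrectomy (2.64, adjusted p = 0.00126), as were Arg1 (2.76, adjusted p = 0.00166) and Lyve1 (3.96, adjusted p = 3.82e-05). Adgre1 was lower (-1.04, adjusted p = 0.0175). Of 35 general macrophage genes, 1 was higher and 10 were lower at UIRI+Nx d7 than at UIRI d7. Of 16 genes of antigen presentation on MHC class II, 8 were lower, and the invariant chain gene Cd74 had 32.9, 80.5 and 129 CPM at UIRI+Nx d7, against 112, 382 and 778 CPM at UIRI d7 (-2.30, adjusted p = 0.0014). The T and NK cell sum was 9.56, 13.1 and 27.5 CPM at UIRI+Nx d7, against 38, 95 and 117 CPM at UIRI d7, without overlap.

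A few genes passed in opposite directions with and without nephrectomy, and were selected for this. Both comparisons share the UIRI d3 libraries. Ptgfr, the prostaglandin F receptor, had 32.8, 43.4 and 56 CPM at UIRI+Nx d7, 14.2, 16 and 21.6 CPM at UIRI d7, and 20.5, 24.3 and 34.8 CPM at UIRI d3. It was higher at UIRI+Nx d7 than at UIRI d3 (0.72, adjusted p = 0.0104) and lower at UIRI d7 than at UIRI d3 (-0.63, adjusted p = 0.0443). Slc37a4 did the same, with 0.66 (adjusted p = 0.00601) and -0.52 (adjusted p = 0.0474). Neurl3, a ubiquitin ligase gene, and the T cell coreceptor gene Cd4 went the other way. Neurl3 was -0.61 at UIRI+Nx d7 (adjusted p = 0.0497) and 0.74 at UIRI d7 (adjusted p = 0.0244) against UIRI d3, and Cd4, at 1.28 CPM or less in UIRI+Nx d7 and UIRI d3, -1.92 and 1.76 (adjusted p = 0.0427 and 0.0327). The calls of Neurl3 and Cd4 at UIRI+Nx d7 were lost in 10 and 8 of 12 cases when single libraries were left out.

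One further called gene rests on a single library. Igfbp1, a binding protein of insulin-like growth factors, had 2.39, 9.13 and 263 CPM at UIRI+Nx d7 and 7.57, 8.7 and 14.9 CPM at UIRI d3 (2.46, SE 0.72, adjusted p = 0.0453). The 263 CPM came from UIRI+Nx d7 replicate 4, and without it the log2 fold change was 0.19.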

How the data were processed

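Gene counts were deposited as 1 table of 48795 genes and 41 libraries, made by the authors with QuantSeq 3′ mRNA sequencing of RNA from a kidney pole section, per the labels. Per the submitters' processing notes, Trimmomatic, STAR (2.7.11b is named for the second cohort), HTSeq 0.6.1, GRCm38 (mm10) and GRCm39 were used. Because 3′ reads are counted, levels are not divided by gene length and are compared within genes.

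Each cohort was fitted on its own with all its groups by the quasi-likelihood test of edgeR 4.0.16 (R 4.3.3), after TMM scaling and filtering of low counts by group, with Benjamini-Hochberg adjustment over all genes and a threshold of 0.05. The difference between cohorts was tested in 1 fit of 40 libraries. CPM are counts divided by the TMM-scaled library size, times 1000000. The series' design gives 6 animals per group for the first cohort. For the second, no label used here says that libraries are separate animals, so its p-values measure the spread between libraries, which may be technical. On simulated counts of the first cohort (15516 genes), 56% of changes of 1 and 95% of changes of 2 on the log2 scale were recovered, with 5 false calls. The changes were placed only in genes with a mean above 5 CPM, and no outlying library or block was simulated. Recovery in lower genes and in the presence of such libraries was not tested.

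Gene lists, members and the comparison itself were chosen with earlier results of these data known. Named genes were up to 12 per direction with the largest fold among non-overlapping called genes with a mean of at least 5 CPM, up to 4 per list by adjusted p, a panel of markers, up to 8 per direction called in both cohorts, and genes called in opposite directions at UIRI+Nx d7 and UIRI d7. List members named beyond these were chosen after their values were seen. Alternatives were DESeq2 1.42.0, its size factors, other filters, library blocks, replicate numbers as a block, and leaving out each library.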

Additional observations from a re-analysis of the deposited data

Results flagged for a closer look

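Of 214 groups of 6 libraries checked, 28 (13.1%) held a library whose gap to its nearest neighbour was large for the range of the group. The limit used gives about 1 in 20 for independent, normally distributed values. CPM need not be so distributed and the groups reuse the same libraries, so the share describes the data and was not tested. UIRI+Nx d7 held 11 of them and UIRI d3 17.

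In UIRI+Nx d7, replicate 4 was high for Gldc (507 CPM), Igfbp1 (263 CPM) and the share of hemoglobin counts (0.0819%). Replicate 6 was high for Col1a1 (1182 CPM) and Ltbp2 (40.6 CPM) and low for Cd44 (39.3 CPM). Replicate 1 was high for Dnase1 (19 CPM), replicate 2 was high for Cdc20 (14.9 CPM) and Slco1a1 (6.74 CPM), replicate 3 was low for Il1rn (13.4 CPM) and replicate 5 was low for Cxcr2 (0.146 CPM).

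In UIRI d3, replicate 3 was high for S100a8 (1388 CPM), Lcn2 (534 CPM), S100a9 (523 CPM), Hmox1 (279 CPM), Slpi (112 CPM), Gldc (72.7 CPM), Nqo1 (35.5 CPM), Slc38a3 (17.9 CPM), Cxcr2 (7.41 CPM) and Ly6c2 (5.95 CPM), and low for Slc34a1 (2014 CPM). Replicate 6 was high for Umod (2471 CPM), Timd2 (134 CPM), Col5a2 (64.2 CPM), Slc22a30 (38.1 CPM) and Col12a1 (22.4 CPM), and low for Bcl3 (73 CPM). The cause was not tested.

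The library titled UNDETERMINED carries no group in its labels and entered no comparison. Its title does not say which kidney or kidneys its reads came from, so it is not a known sample of an injured kidney. Its Havcr1 level was 559 CPM without TMM scaling, against at most 4.89 in Control libraries and 432 to 902 in UIRI d3 libraries of the second cohort.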

How the results depend on the processing

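Of 144 alternatives to the counts of called genes and library measures, 131 stayed on the same side or within 1.5 times. For UIRI+Nx d7 against UIRI d3 in the first cohort, leaving out single libraries gave 524 to 914 called genes, and fits within library blocks 1a and 2b gave 1329 and 94. DESeq2 called 1194 and a fit with the library block as a covariate 1055. In the second cohort, leaving out single libraries gave 554 to 1147. UIRI+Nx d7 against UIRI d7 gave 695 to 1087 without single libraries and 586 on those 2 groups alone, and the difference between cohorts gave 3 with DESeq2. Without single libraries, the differences between UIRI+Nx d7 and UIRI d3 in library measures ranged from -2374863 to 317008 total counts, from -228 to 90.6 genes detected at equal depth, from -0.00862 to 0.0076 percentage points of hemoglobin and from -0.657 to 0.167 of Gm42418. With the replicate number as a block, 756 genes were called for the first cohort and 1185 for the second cohort. The deviations of log CPM from the group mean were also correlated between same-numbered libraries of the 2 groups. The values were -0.424 to 0.171 in the first cohort and -0.192 to 0.0894 in the second. They gave no sign that the numbers pair the samples, but cannot exclude it, since paired libraries need not correlate in this measure.

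Of 93 called genes named, 74 stayed called without any single library. Within block 1a, 60 of the 92 tested passed and 92 kept their sign. Within block 2b, 32 of 93 passed and 92 kept their sign. Signs turned for Adgre1 (-0.05 to 0.19 without single libraries, -0.30 within block 2b), Sox9 (0.09 without UIRI d3 replicate 3, 0.54 within block 2b), Egf (0.11 within block 1a), Acta2 (0.35 within block 2b) and Igfbp1 (-0.63 within block 2b). Only Igfbp1 of these was called. The cause was not tested. Depth limits genes below about 1 CPM such as Cd4.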
